A study of Mus musculus with 2 samples.

Results

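The genes of the endoplasmic reticulum (ER) secretory pathway were described gene by gene in sorted fibroblast-lineage cells of mouse dermis, either untreated (UT) or after imiquimod (IMQ). The 38 genes were taken by name from the 31053 genes of the count matrices, with no cutoff on a measured value but with earlier results of these data known. They cover the translocon, the TRAP complex, signal peptidase, the signal recognition particle, oligosaccharyltransferase, chaperones, disulfide isomerases, p24 cargo receptors, KDEL receptors, the FKBP isomerases of the ER, and the Golgi protein Sdf4.

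Secreted proteins such as collagens are threaded into the ER through the Sec61 translocon while they are being translated. Their signal peptide is cut off, sugars are attached, chaperones and disulfide isomerases fold them, and coated vesicles carry them on to the Golgi, from where KDEL receptors return escaped ER residents. Dermal fibroblasts make the collagen of the skin and depend on this route. An excess of unfolded protein in the ER induces chaperone genes through the unfolded protein response.

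Both libraries came from C57BL/6 mice of the PdgfraDreER-tdTomato genotype, 8 weeks of age, in which tamoxifen lets the Pdgfra-driven Dre recombinase switch on tdTomato. The UT library came from untreated dermis and the IMQ library from skin that had received imiquimod, a Toll-like receptor agonist, for 7 days to induce psoriasiform inflammation. Live CD45- tdTomato+ cells were sorted after overnight Dispase II digestion. In both groups the sort aimed at cells in which the Pdgfra promoter had been active and which carry the reporter. UMIs of other cell types in the kept barcodes are given below. There was 1 library per group, and the number of mice behind each was not given in the sources used here. No difference between the groups could therefore be tested, and every interval below is a 95% interval of counting error within these 2 libraries only.

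Barcodes with 200 to 5000 genes and at most 5% mitochondrial UMIs (unique molecular identifiers, each standing for 1 counted transcript) were kept: 1045 of 1415 in UT, with 1104798 UMIs, and 571 of 5047 in IMQ, with 460947 UMIs. The median depth was 741 UMIs per barcode in UT and 659 in IMQ. The fibroblast genes Pdgfra, Pdgfrb, Col1a1, Col1a2, Col3a1, Dcn and Lum were seen in both libraries, 7 of 7 in each, and summed to 80818 CPM (UMIs per 1000000 UMIs of the library) in UT and 121712 in IMQ. Class II antigen-presenting genes, 5 of 5 seen in each, summed to 1549 and 184 CPM. Keratinocyte genes, 6 of 7 and 3 of 7 seen, summed to 1524 and 15.2 CPM, of which Krt10 made 1003 CPM in UT. Mural and muscle genes, 2 of 4 seen in each with Rgs5 and Myh11 at 0, summed to 108 and 17.4 CPM. Other leukocyte and endothelial genes summed to at most 69.7 CPM each in either library, with Cd3e at 0 in both and Ptprc at 1 UMI in UT and 0 in IMQ. The rRNA-overlapping transcripts Gm42418 and AY036118 took 1.43% of UMIs in UT and 15.2% in IMQ. The nuclear RNA Malat1 was concentrated in 33 UT and 6 IMQ barcodes with at least 10 Malat1 UMIs, and made 0.00961% and 0.00401% of UMIs in the remaining barcodes. The part of these differences in the results below was not tested, except where values without the barcodes concerned are given.

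The 38 genes together took a smaller share of UMIs in the IMQ library, but this lower share was near that of the median gene with at least 10 UMIs. They made 12798 UMIs in UT, or 1.16% of the library, and 3652 UMIs in IMQ, or 0.792%. As summed levels these were 11584 CPM (95% Poisson interval 11384 to 11787) and 7923 CPM (7668 to 8184). The CPM of 5 of the 38 genes was higher in IMQ than in UT. The share over all genes was not computed, and nothing particular to the 38 genes is read from this count. The log2 ratio of IMQ to UT CPM was -0.55 (-0.60 to -0.49) for the sum, while the median over the 8129 genes with at least 10 UMIs was -0.61. The ratio of each gene is therefore given below relative to this median gene, a scale that is the same for CPM, for TMM and median-of-ratios scaling, and for CPM from which Gm42418, AY036118, ribosomal protein and mitochondrial UMIs were taken out. On it, the 38 genes as a sum lay at 0.07 (0.01 to 0.12), and at -0.0043 once 12 UT and 7 IMQ barcodes with class II or keratinocyte UMIs were left out. With a mitochondrial maximum of 10%, which kept 1301 UT and 1043 IMQ barcodes, the sum lay at 0.10 (0.06 to 0.14).

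The 38 genes lay on both sides of the median gene. Relative to the median gene, 20 of the 38 were higher and 18 lower in IMQ, with a median of 0.02 and an interquartile range of -0.30 to 0.43, against -0.58 to 0.55 over all 8129 genes and -0.47 to 0.43 over the 3125 genes with at least 50 UMIs. Each of the 38 genes had at least 82 UMIs over both libraries, with a median of 380, against a median of 111 for those 3125 genes, and counting error is wider at fewer UMIs. Fkbp10, at 2-fold, was the 1 gene of the 38 at least 2-fold higher, where 12.7% of all genes were, and 8.19% of those with at least 50 UMIs. Hsp90b1 was the 1 gene at least 2-fold lower, where 14.9% of all genes were, and 10.4% of those with at least 50 UMIs. At the 10% maximum these were again Fkbp10, against 12.1% of all genes, and Pdia4, against 14.0%. The counting interval lay above the median gene for 10 genes (Ssr2, Ssr3, Ssr4, Srp9, Tmed2, Tmed3, Kdelr1, Fkbp7, Fkbp9 and Fkbp10), below it for 7 (Sec61b, Srp14, Hsp90b1, Calr, Pdia3, Pdia4 and Pdia6), and covered it for 21. Over all genes the interval lay above for 12.5% and below for 8.84%, and over genes with at least 50 UMIs for 20.8% and 15.9%. Intervals narrow with the UMI count, and nothing particular to the 38 genes is read from these counts. The same 10 and 7 genes stood apart at the 10% maximum, with Spcs2 as an additional gene below, where 14.2% of all genes lay above and 971 of 8833 below. Barcodes above 5% and up to 10% mitochondrial UMIs, 256 in UT and 472 in IMQ, share no barcode with the main set. They come from the same 2 libraries, so they are no replicate of the groups. In them 28 of the 38 genes were on the same side as in the main set, and the share over all genes was not computed. Of the 10 genes above the median gene, 10 were again above it. There 5 of the 7 genes were again below it, Srp14 and Pdia6 being the exceptions at 0.19 and 0.22.

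**Figure D1:**
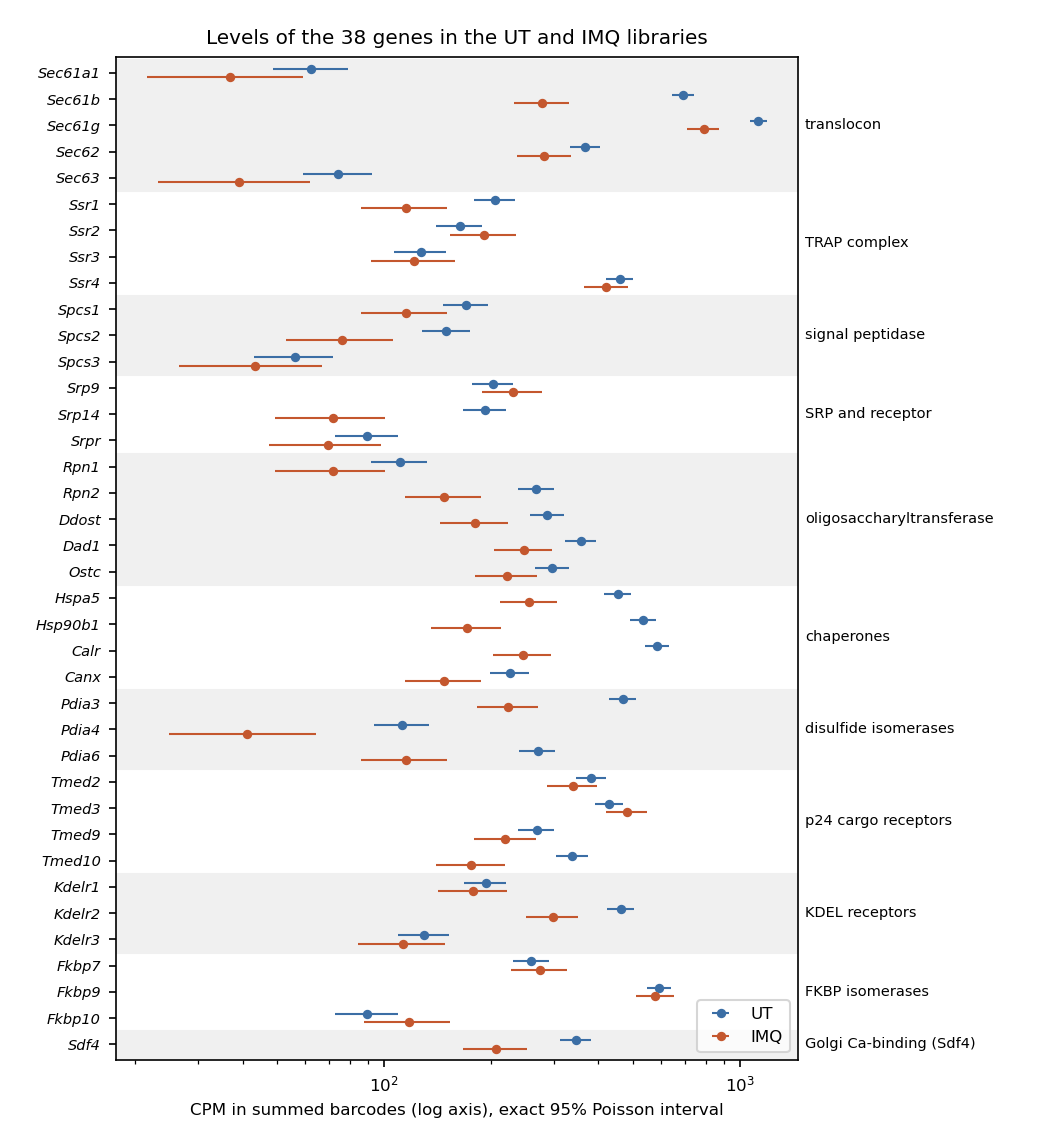
Level of each of the 38 genes in the UT and the IMQ library, as CPM on a log axis, with exact 95% Poisson intervals and grouped by role. The 2 points of Ssr3, Fkbp7 and Fkbp9 nearly coincide, while those of Hsp90b1, Calr, Pdia3 and Sec61b lie far apart, with IMQ lower.

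The translocon was lower in IMQ in CPM and near the median gene in ratio, but its subunits were not alike. Its 5 genes summed to 2322 CPM in UT and 1425 CPM in IMQ, at -0.09 (-0.22 to 0.03) relative to the median gene. Sec61b, the small beta subunit of the channel, was at 692 CPM in UT and 278 CPM in IMQ, at -0.70 (-0.99 to -0.43). Sec61g, the gamma subunit, had the most UMIs of the 38 genes in each library, 1126 CPM in UT and 789.7 CPM in IMQ, and lay at 0.10 (-0.07 to 0.27). Sec62, which helps short precursors into the channel, was at 367 and 282 CPM, at 0.24 (-0.06 to 0.52). Beta and gamma subunits of the same channel thus stood on different sides, and their intervals did not overlap. Sec61a1, which forms the pore, had 69 UT and 17 IMQ UMIs, and Sec63, the partner of Sec62, had 82 and 18. Both were too sparse in IMQ to place.

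The TRAP complex, which binds the translocon and assists the entry of some signal peptides, was nearly as abundant in IMQ as in UT. Its 4 genes summed to 954 CPM in UT and 848 CPM in IMQ, at 0.44 (0.27 to 0.61) relative to the median gene. Ssr2, its beta subunit, was at 163 CPM in UT and 191 CPM in IMQ, at 0.84 (0.46 to 1.22). Ssr4, the delta subunit, was at 459.8 and 421 CPM, at 0.49 (0.24 to 0.73), and Ssr3, the gamma subunit, at 127 and 121 CPM, at 0.55 (0.08 to 1.01). The alpha subunit gene Ssr1 differed from these, at 205 CPM in UT and 115 CPM in IMQ and -0.22 (-0.68 to 0.22) in ratio. The beta, gamma and delta subunits were thus above the median gene and the alpha subunit was not resolved from it.

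Targeting and signal peptide removal showed no common shift. Signal recognition particle genes bring ribosomes with a nascent signal peptide to the ER. Srp9 and Srp14, whose products form a heterodimer that slows translation, went apart: Srp9 was at 202 CPM in UT and 230.0 CPM in IMQ, at 0.80 (0.45 to 1.14). Srp14 was at 192 CPM in UT and 71.6 CPM in IMQ, at -0.81 (-1.38 to -0.28), a ratio that was 0.19 in the barcodes above 5% mitochondrial UMIs. Srpr, the receptor subunit on the ER membrane, was at 89.6 and 69.4 CPM, at 0.25 (-0.38 to 0.83). The signal peptidase genes Spcs1, at 170.2 and 115 CPM, Spcs2, at 149 and 75.9 CPM, and Spcs3, at 56.1 and 43.4 CPM, had ratios of 0.05 (-0.42 to 0.49), -0.36 (-0.93 to 0.17) and 0.24 (-0.56 to 0.99). These intervals cover the median gene. Of the 20 Spcs3 UMIs in IMQ, 5 were in 1 barcode. The sum of the signal peptidase genes lay at -0.07 (-0.39 to 0.24) and that of the particle and receptor at 0.23 (-0.03 to 0.48).

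Oligosaccharyltransferase, the enzyme that attaches N-glycans to proteins entering the ER, followed the median gene closely. Its 5 genes summed to 1318 CPM in UT and 868 CPM in IMQ, at 0.01 (-0.15 to 0.17). Rpn1 was at 110.4 and 71.6 CPM, at -0.01 (-0.61 to 0.55), and Rpn2 at 267 and 148 CPM, at -0.24 (-0.65 to 0.14). Ddost, another subunit of the core complex, was at 287 and 180.1 CPM, at -0.06 (-0.43 to 0.29). Dad1 was at 358 and 247 CPM, at 0.08 (-0.23 to 0.39), and Ostc, which links the enzyme to the translocon, at 296 and 221 CPM, at 0.19 (-0.14 to 0.52). None of the 5 intervals lay off the median gene.

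Chaperones of the ER lumen were lower in IMQ beyond the median gene. The 4 genes summed to 1797 CPM in UT and 820.1 CPM in IMQ, at -0.52 (-0.68 to -0.36). Hsp90b1, the ER Hsp90 (GRP94), was at 534 CPM in UT and 171 CPM in IMQ, at -1.03 (-1.38 to -0.69), the lowest of the 38 ratios. Calr, the calcium-binding lectin calreticulin, was at 584 CPM in UT and 245 CPM in IMQ, at -0.64 (-0.94 to -0.35). Hspa5, the ER Hsp70 known as BiP, was at 453 and 256 CPM, at -0.21 (-0.51 to 0.08). Canx, the membrane-bound lectin calnexin, was at 225 and 148 CPM, at 0.00 (-0.41 to 0.39). The lower value of the group was therefore carried by Hsp90b1 and Calr. Of the Hspa5 UMIs in UT, 5.79% were in 1 barcode with 29 UMIs, and of the Canx UMIs 5.62% were in 1 barcode.

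The 3 disulfide isomerases chosen here stood with these chaperones. Pdia3, Pdia4 and Pdia6 form and rearrange disulfide bonds, Pdia3 in partnership with calreticulin and calnexin. They summed to 849.9 CPM in UT and 379.7 CPM in IMQ, at -0.55 (-0.79 to -0.32). Pdia3 was at 468 CPM in UT and 223 CPM in IMQ, at -0.45 (-0.77 to -0.15). Pdia6 was at 269.7 and 115 CPM, at -0.62 (-1.07 to -0.19), but at 0.22 in the barcodes above 5% mitochondrial UMIs. Pdia4 had 124 UMIs in UT and 19 in IMQ. The 3 isomerases were on the same side of the median gene in the main set. This holds for these 3 genes and is not read as a result of the whole enzyme class. Among related genes outside the set, P4hb was at 266 and 171 CPM, at -0.02 (-0.40 to 0.34). Txndc5 was at 177 and 93.3 CPM, at -0.31 (-0.83 to 0.17). Both intervals cover the median gene. Pdia5, with 36 UMIs in UT and 4 in IMQ, and Erp44, with 64 and 16, were too sparse in IMQ to place.

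The ER stress response element, with the letters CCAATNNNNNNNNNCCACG, is a known promoter motif of ER chaperone genes. It was searched on both strands in windows of 300 bases, from 250 before to 50 after the RefSeq start (GRCm38). Of the 38 genes, 31 had such a window, and 5 of the 31 (16.1%) held the motif, against 37 of 27025 symbols (0.137%). All of the 5 are chaperones or disulfide isomerases, and they are shown because 3 of them, Hsp90b1, Calr and Pdia6, are among the 7 genes below the median gene. The capitals mark the matching letters and lower case marks the spacer, read along the strand given.
Hspa5, chr2:34772025-34772043, plus strand, 47 to 65 bases before the start: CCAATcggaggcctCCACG
Hsp90b1, chr10:86705638-86705656, minus strand, 194 to 212 bases before the start: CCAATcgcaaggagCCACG
Hsp90b1, chr10:86705533-86705551, plus strand, 89 to 107 bases before the start: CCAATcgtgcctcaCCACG
Calr, chr8:84847075-84847093, plus strand, 144 to 162 bases before the start: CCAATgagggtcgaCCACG
Canx, chr11:50325800-50325818, minus strand, 127 to 145 bases before the start: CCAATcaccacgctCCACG
Pdia6, chr12:17266491-17266509, plus strand, 80 to 98 bases before the start: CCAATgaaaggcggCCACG

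The motif and the ratios are not separate lines of evidence here, since the 5 genes are among the chaperones and disulfide isomerases already described. Over all tested genes with a window, 10 of 6384 (0.157%) held the motif, the 5 above and Acacb, Creld2, Dnajc3, Hnrnpa3 and Syvn1. Below the median gene were 7 of the 10, among them Hspa5, Hsp90b1, Calr and Pdia6 already described. By definition as many tested genes lie below the median gene as above it, and nothing is read from this count. Syvn1 had 10 UMIs in UT and 1 in IMQ. Creld2, an ER stress-inducible secreted factor, had 39 UMIs in UT and 2 in IMQ, and Dnajc3, an ER cochaperone, had 199 and 58 UMIs and a ratio of 0.10. The shorter element with the letters ATTGGNCCACG was in 0 of the 31 windows and in 0.0444% of symbols. Of the 8 tested genes with it, 4 were below the median gene, and their median was 0.02. Matches are descriptions of letters, and binding was not measured.

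The p24 proteins, which load cargo into vesicles between ER and Golgi, were higher than the median gene as a sum. Their 4 genes summed to 1415 CPM in UT and 1215 CPM in IMQ, at 0.39 (0.25 to 0.53). Tmed3 was at 428 CPM in UT and 482 CPM in IMQ, at 0.78 (0.55 to 1.02). Tmed2 was at 382 and 338 CPM, at 0.44 (0.16 to 0.71). Tmed9 was at 268 and 219 CPM, at 0.32 (-0.02 to 0.65). Tmed10, a p24 protein of the delta subfamily, was on the other side, at 337 CPM in UT and 176 CPM in IMQ and -0.32 (-0.69 to 0.03) in ratio. The interval of Tmed10 did not overlap those of Tmed2 and Tmed3.

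The KDEL receptors, which fetch ER residents such as Hspa5 and Calr back from the Golgi, had a sum of 784 CPM in UT and 588 CPM in IMQ, at 0.20 (-0.0038 to 0.40). Kdelr1 was at 193 and 178 CPM, at 0.50 (0.11 to 0.87). Kdelr2, the receptor gene with the most UMIs, was at 462 CPM in UT and 297 CPM in IMQ, at -0.02 (-0.30 to 0.25). Kdelr3 was at 129 and 113 CPM, at 0.42 (-0.07 to 0.88). Of the 3 receptors, Kdelr1 was the one whose interval lay off the median gene. Sdf4, a calcium-binding protein of the Golgi lumen, was at 346 and 206 CPM, at -0.13 (-0.47 to 0.19).

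The FKBP isomerases of the ER were about equally abundant in the 2 libraries, which placed them above the median gene by more than any other role group. These enzymes turn proline bonds, and Fkbp10 (FKBP65) is a collagen chaperone. They summed to 940.4 CPM (1039 UMIs) in UT and 968 CPM (446 UMIs) in IMQ, at 0.65 (0.49 to 0.82). Fkbp10 was at 89.6 CPM in UT and 117 CPM in IMQ, at 1.00 (0.49 to 1.49). Fkbp7 was at 259 and 273 CPM, at 0.69 (0.38 to 1.00), and Fkbp9 at 592 and 577 CPM, at 0.58 (0.37 to 0.78). The 3 genes were above the median gene at the 5% and the 10% maximum, and the Poisson intervals of their levels in the 2 libraries overlapped for each of them.

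**Figure D2:**
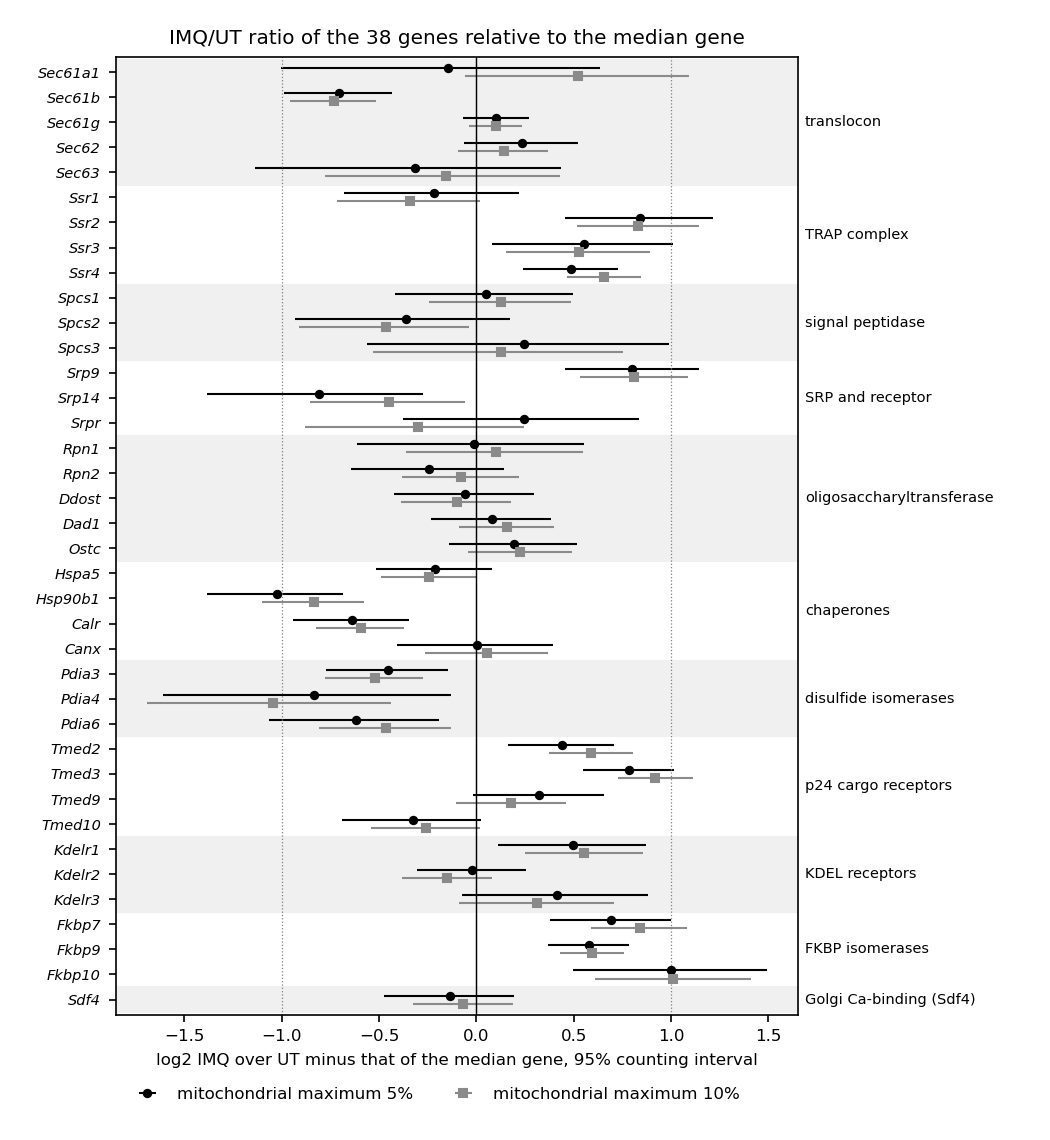
Log2 ratio of IMQ to UT relative to the median gene for each of the 38 genes, with 95% counting intervals, at the 5% (circles) and 10% (squares) mitochondrial maximum; dotted lines mark 2-fold. Hsp90b1, Calr and the disulfide isomerases sit left of 0 and Ssr2, Srp9, Tmed3 and the FKBP genes right of 0 at both maxima.

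The placing of the role groups depended on which barcodes were summed. In the 742 UT and 534 IMQ barcodes of 200 to under 500 genes, the chaperones lay at -0.37 (-0.57 to -0.17), the disulfide isomerases at -0.45 (-0.75 to -0.15), the p24 genes at 0.53 (0.36 to 0.71), the TRAP genes at 0.44 (0.24 to 0.64) and the FKBP genes at 0.68 (0.48 to 0.87). Without the barcodes with at least 10 Malat1 UMIs these were -0.56, -0.64, 0.37, 0.42 and 0.51. In barcodes of 500 genes or more, of which IMQ had 37 with 605 UMIs of the 38 genes and UT had 303 with 7316, chaperones and disulfide isomerases were again lower, at -0.83 and -0.81. There, however, the p24, TRAP and FKBP genes were below the median gene too, at -0.42 (-0.75 to -0.11), -0.65 (-1.11 to -0.22) and -0.61 (-1.06 to -0.18). In these barcodes the 38 genes as a sum lay at -0.69, and Ssr2, Ssr4, Tmed2, Tmed3, Fkbp7 and Fkbp9 lay below the median gene. The median gene itself was at -0.01 there, against -0.61 in the main set and -0.62 in barcodes of 200 to under 500 genes. In barcodes of 500 genes or more the 38 genes made 1.18% of UMIs in UT and 0.724% in IMQ. In the main set these shares were 1.16% and 0.792%. The change of side is thus read against a different reference, whose part in it was not tested. The chaperone and disulfide isomerase values were thus below the median gene in each of these sets. The FKBP, p24 and TRAP values were above it in each but the barcodes of 500 genes or more. In those barcodes chaperones and disulfide isomerases did not stand apart, as the translocon was lower still and the sum was at -0.69.

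**Figure D3:**
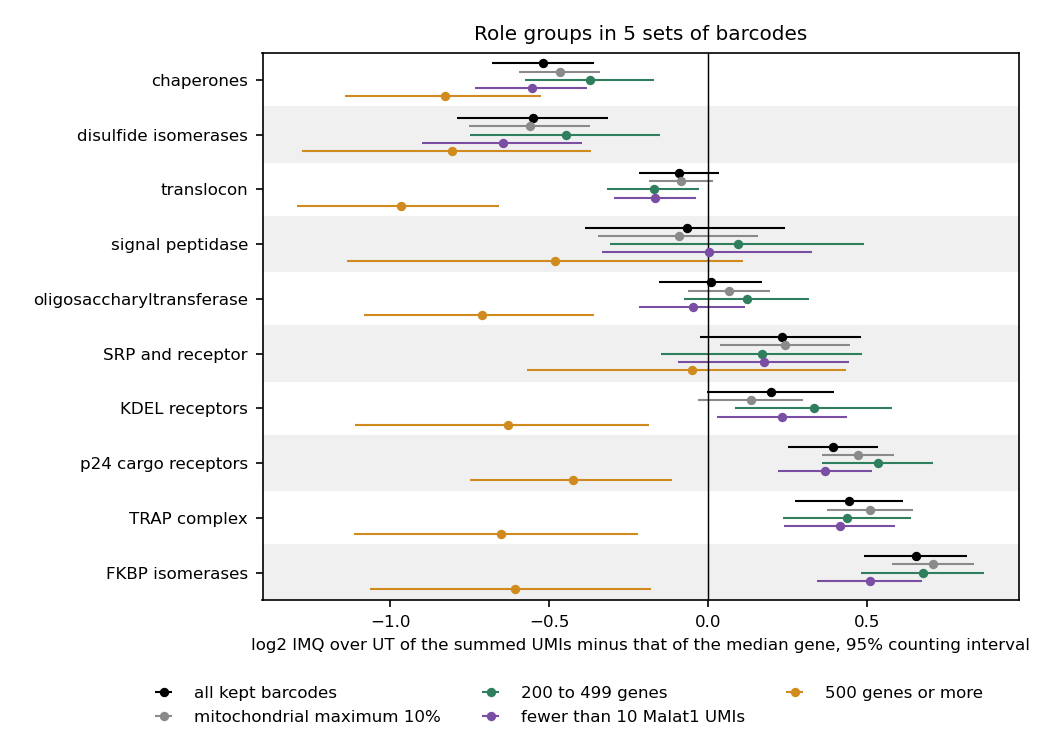
Log2 ratio of IMQ to UT of 10 role groups, relative to the median gene, with 95% counting intervals, in 5 sets of barcodes. Chaperones and disulfide isomerases are left of 0 in all 5 sets, whereas the FKBP, TRAP and p24 groups are right of 0 in 4 sets and left of it in barcodes of 500 genes or more. The 0 line is the median gene of each set, at -0.61 in all kept barcodes and -0.01 in those of 500 genes or more.

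Wider lists of the same pathway gave the setting for these values. From each list the 2 highest and 2 lowest ratios are named among genes with at least 20 UMIs in each library. Sparser genes fall outside this rule, among them Sec24a, Pdia5 and Magt1, whose ratios were lower than those named from their lists. Of 29 other subunits and family members of the same complexes, 28 were tested, 14 on each side of the median gene, with a median of 0.03. Sec11a, a catalytic subunit of signal peptidase, at 126 CPM in UT and 143 CPM in IMQ, lay at 0.80 (0.35 to 1.23), and the ER lumen protein gene Erp29, at 141 and 145 CPM, at 0.66 (0.22 to 1.08). Fkbp2, at 157 and 71.6 CPM, lay at -0.52 (-1.10 to 0.03), and Ost4, a small subunit of oligosaccharyltransferase, at 654 and 308 CPM, at -0.47 (-0.74 to -0.21). Of 28 genes of the COPII and COPI coats and cargo receptors, 10 were above and 18 below the median gene, with a median of -0.21. Mia3 (TANGO1), which loads collagen into COPII carriers, was at 41.6 CPM in UT and 78.1 CPM in IMQ, at 1.52 (0.85 to 2.18). Mcfd2, a cargo receptor subunit, was at 64.3 and 69.4 CPM, at 0.72 (0.07 to 1.35). The COPI coat genes Copa, at 111 and 43.4 CPM, and Copb2, at 154 and 60.7 CPM, had ratios of -0.75 (-1.51 to -0.06) and -0.73 (-1.36 to -0.14).

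Genes of the unfolded protein response and ER-associated degradation lay on both sides of the median gene, 12 above and 10 below. Their summed UMIs lay at 0.29 (0.16 to 0.42). Of the 26, 22 were tested, with a median of 0.11, 4 at least 2-fold higher and 5 at least 2-fold lower, where 12.7% and 14.9% of all genes were. At the 10% maximum 3 were higher and 3 lower by that much. Herpud1, a degradation factor induced by ER stress, was at 66.1 CPM in UT and 121 CPM in IMQ, at 1.49 (0.96 to 2.01). Derl1, a degradation channel protein, was at 82.4 and 117 CPM, at 1.12 (0.61 to 1.62). Lowest among the genes with at least 20 UMIs in each library were Manf and Selenok. Manf, a secreted stress-induced factor, was at 201 and 113 CPM, at -0.22 (-0.68 to 0.22), and Selenok, at 395 and 223 CPM, at -0.21 (-0.53 to 0.11). The 5 genes at least 2-fold lower, Creld2, Eif2ak3, Syvn1, Sdf2l1 and Hyou1, each had fewer than 20 UMIs in IMQ. So did Asns among the 4 higher, the others being Herpud1, Derl1 and Atf4. Atf4 was at 142 CPM in UT and 193 CPM in IMQ, at 1.06 (0.66 to 1.44).

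The collagen cargo and its folding enzymes were higher in IMQ than the median gene. Col1a1, an alpha chain of type I collagen, was at 25527 CPM (28202 UMIs) in UT and 47112 CPM (21716 UMIs) in IMQ, at 1.50 (1.47 to 1.52). The 12 collagen cargo genes lay above the median gene, 9 of them at least 2-fold, with a median of 1.33. Col6a1 was at 195 and 449 CPM, at 1.82 (1.54 to 2.10), and Sparc, a collagen-binding glycoprotein, at 19547 and 42224 CPM, at 1.72 (1.70 to 1.75). Lum and Dcn, the proteoglycans of collagen fibrils, had the lowest ratios of the list, at 0.73 (0.65 to 0.81) and 0.14 (0.10 to 0.18), with Lum at 3734 and 4046 CPM and Dcn at 23657 and 17043 CPM. Of 14 collagen folding enzymes, 11 were tested and 10 were above the median gene, with a median of 0.63. Plod1, a lysyl hydroxylase, was at 73.3 and 139 CPM, at 1.53 (1.04 to 2.03), and P4ha2, a prolyl hydroxylase subunit, at 116 and 154 CPM, at 1.02 (0.58 to 1.45). Ppib, the ER cyclophilin, at 1169 and 757 CPM, and Crtap, at 115 and 75.9 CPM, lay at -0.01 (-0.19 to 0.16) and 0.02 (-0.57 to 0.56). In barcodes of 500 genes or more the median of the collagen cargo was 0.17 and that of the folding enzymes -0.45. The median gene they are set against was at -0.01 in those barcodes, against -0.61 in the main set.

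Per barcode, few of the 38 genes were seen at this depth. The median barcode held 8 UMIs of the 38 genes in UT and 5 in IMQ. The share of barcodes with a UMI had a median over the 38 genes of 19.6% in UT (range 4.98% to 56.8%) and 12.3% in IMQ (2.63% to 42.6%). Sec61g was the most widely seen, with a UMI in 594 of the 1045 barcodes of UT (56.8%, Clopper-Pearson interval 53.8% to 59.9%). In IMQ it had one in 243 of 571 barcodes (42.6%, 38.5% to 46.7%). After each barcode was thinned to 400 UMIs, leaving 972 UT and 538 IMQ barcodes and dropping 73 and 33 shallower ones, the medians were 8.95% and 6.69%. The 400 UMIs were drawn from all UMIs, of which Gm42418 and AY036118 made 1.43% in UT and 15.2% in IMQ. The UMIs of other genes were therefore not matched between the libraries. Hsp90b1 was then seen in 14.4% and 6.88% of barcodes, and Fkbp9 in 21.3% and 20.3%. All nucleated cells use these genes, so no cell type that lacks them was at hand to gauge free RNA. In barcodes of fewer than 200 genes, outside the kept set, the 38 genes made 0.619% of UMIs in UT (64 barcodes) and 0.464% in IMQ (3621 barcodes).

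The relation to Col1a1 was described within each library. Barcodes were ranked by Col1a1 UMIs per other UMI and split into 4 equal classes, and the 38 genes were summed in each class, with mitochondrial, ribosomal protein, Gm42418, AY036118 and Col1a1 UMIs left out of the denominator. In UT the 38 genes took 1.18% of other UMIs in the lowest class, then 1.56%, 1.72% and 1.88% in the highest, a log2 difference of 0.67 (0.60 to 0.74) between the highest and lowest class. In IMQ the values were 1.24%, 1.44%, 1.43% and 1.34%, a log2 difference of 0.12 (-0.01 to 0.26). Genes in general had lower shares in the highest class, with a median log2 difference of -0.40 over 7256 genes in UT and -0.50 over 3403 genes in IMQ. The medians over the 38 genes were 0.61 and 0.22. The share of the 38 genes was thus higher in the highest class than in the lowest in UT and not resolved between them in IMQ, and in both libraries it lay above the median gene of the same contrast. The lowest UT class held most of the Malat1, at 11116 UMIs against 1585 in the highest class. Without the barcodes with at least 10 Malat1 UMIs the log2 differences were 0.41 (0.33 to 0.50) in UT and -0.08 (-0.22 to 0.06) in IMQ. Gm42418 per other UMI was 1.93% and 1.97% in the lowest and highest UT class and 17.9% and 30.6% in the IMQ classes, and the median depth was 598.5 and 909 UMIs in UT and 578 and 713.5 in IMQ. The part of Gm42418 in this relation was not tested. With barcodes thinned to 400 UMIs the log2 differences were 0.47 and -0.12.

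**Figure D4:**
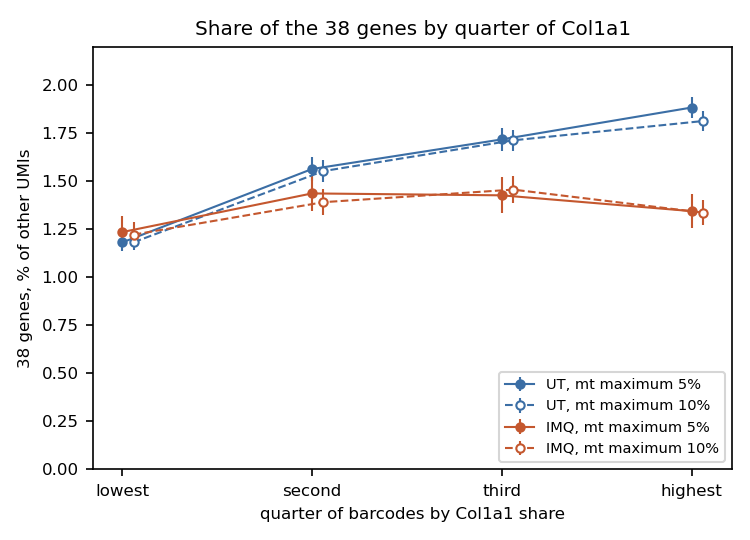
UMIs of the 38 genes as a percent of other UMIs in 4 equal classes of barcodes ranked by Col1a1 share, for each library at the 5% (filled) and 10% (open) mitochondrial maximum, with exact 95% Poisson intervals. The UT line climbs from 1.18% to 1.88% and the IMQ line stays between 1.24% and 1.44% at the 5% maximum.

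The role groups differed in how they went with Col1a1. In UT the FKBP isomerases differed by 1.61 (1.33 to 1.91) on the log2 scale between the highest and lowest class and the KDEL receptors by 1.59 (1.28 to 1.90). In IMQ the same groups differed by 1.11 (0.69 to 1.54) and 0.67 (0.13 to 1.23). Oligosaccharyltransferase differed by 1.05 (0.83 to 1.27) in UT and 0.10 (-0.34 to 0.53) in IMQ, and the disulfide isomerases by 0.87 (0.61 to 1.14) and -0.17 (-0.80 to 0.45). For the p24 genes the values were 0.74 (0.54 to 0.95) and 0.48 (0.12 to 0.84). For the TRAP genes they were 0.66 (0.41 to 0.91) and 0.22 (-0.21 to 0.65). Chaperones had 0.32 (0.15 to 0.49) in UT and -0.30 (-0.70 to 0.09) in IMQ, and the translocon 0.39 (0.23 to 0.55) and -0.16 (-0.49 to 0.17). The signal recognition particle group was at -0.25 (-0.60 to 0.09) in UT, an interval that covers both 0 and the median gene at -0.40. In IMQ it was at -1.34 (-2.07 to -0.66), below the median gene at -0.50, with 67 UMIs in the lowest and 25 in the highest IMQ class. Signal peptidase had -0.18 (-0.55 to 0.19) and -0.33 (-1.16 to 0.47), and Sdf4 0.70 (0.27 to 1.14) and -0.47 (-1.61 to 0.63). Without the Malat1-containing barcodes named above, the UT translocon value was -0.10 and the UT chaperone value 0.72, and the FKBP values were 0.87 in UT and 0.71 in IMQ. The KDEL receptor values were then 1.23 in UT and 0.31 (-0.24 to 0.87) in IMQ, and the IMQ value of the p24 genes was 0.27 (-0.11 to 0.66). With barcodes thinned to 400 UMIs the FKBP values were 0.66 (0.23 to 1.09) in UT and 0.46 (-0.10 to 1.03) in IMQ, and the KDEL receptor values 1.38 (0.83 to 1.96) and 0.32 (-0.50 to 1.16). Both IMQ intervals then covered 0. In UT the thinned disulfide isomerase value was 0.45 (-0.04 to 0.96), the TRAP value 0.37 (-0.06 to 0.80) and the translocon value -0.05 (-0.31 to 0.21), which also covered 0. The median gene after thinning was at -0.16 in UT and -0.41 in IMQ. Collagen folding enzymes differed by 1.55 (1.41 to 1.70) in UT and 0.97 (0.74 to 1.21) in IMQ.

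**Figure D5:**
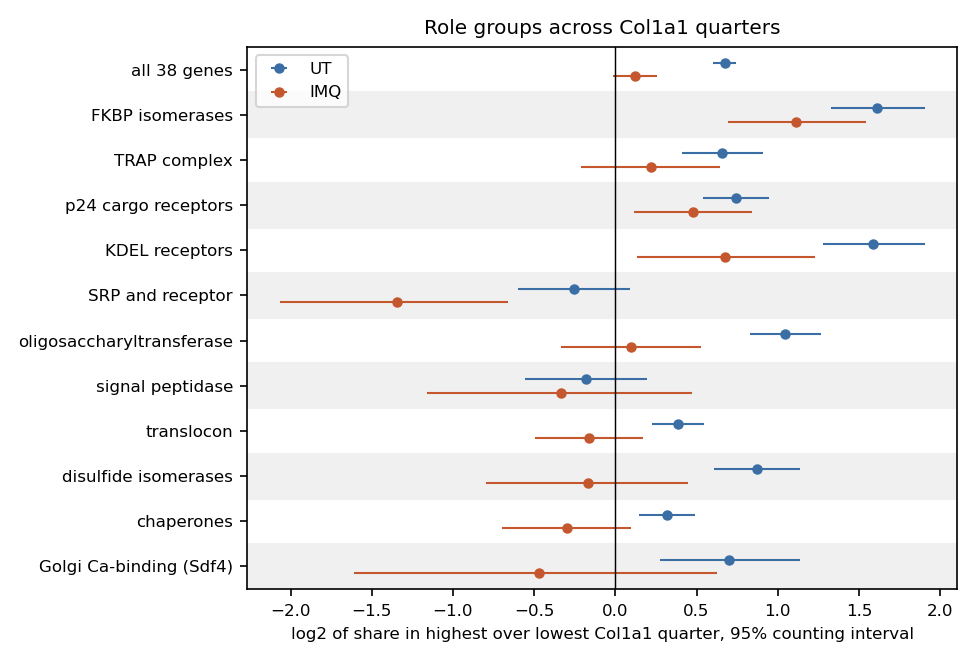
Log2 of the share of other UMIs in the highest over the lowest Col1a1 class for the 38 genes and the role groups, with 95% counting intervals, in UT and IMQ. Without thinning, the FKBP isomerases and KDEL receptors are right of 0 in both libraries, and the UT point lies right of the IMQ point in each group.

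Gene by gene, the correlation with Col1a1 across barcodes was weak in both libraries. Spearman's rho between the summed share of the 38 genes and the Col1a1 share was 0.29 over 1045 UT barcodes and -0.02 over 571 IMQ barcodes, which share their library and denominators. In UT, 34 of the 38 genes had a rho above 0, with a median of 0.11, against -0.01 over 7256 genes. In IMQ, 20 of the 38 did, with a median of 0.01, against -0.03 over 3403 genes. Over genes with at least 50 UMIs the medians were 0.0024 in UT and -0.029 in IMQ. The share of all genes with a rho above 0 was not computed. The genes with the most positive rho in UT were Fkbp7 at 0.26 and Kdelr2 at 0.23, which had 0.09 and 0.06 in IMQ. In IMQ it was Fkbp9 at 0.12, which had 0.17 in UT. Srp9 and Srp14 were the most negative, at -0.05 and -0.04 in UT and -0.15 and -0.13 in IMQ. For scale, the collagen chaperone gene Serpinh1 had 0.51 and 0.22, and Col1a2, the partner chain of Col1a1, 0.87 and 0.90. With barcodes thinned as above, 31 of the 38 genes had a rho above 0 in UT. Their median was then 0.046, against -0.0041 over 3654 genes. After thinning in IMQ, 16 of 35 genes had a rho above 0, with a median of -0.013, against -0.019 over 1664 genes. In these sparse counts such weak values are given as descriptions.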

How the data were processed

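Single-cell 3' libraries were prepared by the authors from sorted CD45- tdTomato+ dermal cells, 1 library per group. The deposited matrices hold UMI counts per gene and barcode, made with Cell Ranger (version 3.0.0 in the UT and 3.1.0 in the IMQ file header) on mm10; the annotation release is not given in the sources used here. The authors' filters (200 to 5000 genes, at most 5% mitochondrial UMIs) were applied, with 10% as an alternative. The cell number that the study states was above the number of barcodes kept here in both libraries and, for IMQ, above that in the matrix. The authors removed predicted doublets. Here the main set had none removed beyond the sort and gene maximum, and 12 UT and 23 IMQ barcodes with the top Scrublet scores were left out as an alternative. One barcode sequence was shared between the deposited libraries and 0 between the kept ones.

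Counts were summed per library and divided by total UMIs (1104798 and 460947) to give CPM. Ratios used genes with at least 10 UMIs over both libraries, a gene at 0 in 1 library being set to 3 counts, and were expressed relative to the median gene. Intervals are exact at 95% (Poisson for sums, conditional binomial for ratios, Clopper-Pearson for shares) and cover counting error only. No test was made, as there was 1 library per group. The median gene was at -0.61 in log2 CPM ratio, -0.35 in CPM from which Gm42418, AY036118, ribosomal protein and mitochondrial UMIs were taken out, -0.13 with TMM (edgeR 4.0.16) and -0.14 with median of ratios (DESeq2 1.42.0); these scalings served as alternatives. A transcript is counted once whatever its length, and levels were not compared between genes beyond naming those with the most UMIs. Of 31053 gene IDs, 30934 were in GENCODE M21 (GRCm38). Overlapping or antisense genes were annotated for some members (Ssr2, Spcs1, Pdia6 and Hsp90b1 among them), and Spcs2, Calr and Tmed10 have pseudogene copies; how reads of these were assigned is not given in the sources used here. Promoter windows came from RefSeq (GRCm38). The computations used Python 3.11.15, numpy 2.4.6, scipy 1.17.1, scanpy 1.11.5 and R 4.3.3, and were tested on simulated counts.

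The 38 genes, role groups, lists and tests were chosen with earlier results of these data known. Members with at least 20 UMIs in each library are given with levels and ratio, the others by counts; of each list, the 2 highest and 2 lowest ratios at that minimum are named, beside Col1a1. Serpinh1, Col1a2, Krt10, the 5 other genes with the promoter motif and the further list genes were named after their values were seen. Alternatives were the barcode sets, scalings, minimum counts and thinning described below. One further marker list is not reported here.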

Additional observations from a re-analysis of the deposited data

How the results depend on the processing

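With 1 library per group, there was no replicate to leave out. No paired analysis was possible because each group holds 1 library, both labelled replicate 1. Under the 10% maximum, removal of top Scrublet scores or of class II and keratinocyte barcodes, and removal of the top barcode of each gene, 38 of 38 gene ratios stayed within their counting interval, as did 37 of 38 with the mean of barcode shares. The other scalings shift all genes alike, so ratios relative to the median gene are the same under them by construction. Depth limited the IMQ side, with 3652 UMIs of the 38 genes against 12798 in UT.

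With a gene minimum of 500, Ssr2 (-0.14), Ssr4 (-0.73), Tmed2 (-0.49), Tmed3 (-0.51), Fkbp7 (-0.73) and Fkbp9 (-0.87) changed side, as did the sum of the 38 genes (-0.69), TRAP (-0.65), p24 (-0.42) and FKBP genes (-0.61). Their median moved to -0.72, and the translocon to -0.97, signal peptidase to -0.48, signal recognition particle to -0.051, oligosaccharyltransferase to -0.71, chaperones to -0.83, disulfide isomerases to -0.81, KDEL receptors to -0.63 and Sdf4 to -1.23. This set holds 37 IMQ barcodes, and its median gene was at -0.01, against -0.61 in the main set. The cause of these changes was not tested.

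With all deposited barcodes the sum lay at 0.21, chaperones at -0.27, FKBP genes at 0.97 and Sdf4 at 0.44. Without class II and keratinocyte barcodes the sum was -0.0043, and as a mean of barcode shares the translocon was -0.22.

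Of the sets chosen after seeing the data, barcodes above 5% to 10% mitochondrial UMIs gave 0.14 for the sum, -0.35 for chaperones, 0.76 for p24, 0.19 for Srp14 and 0.22 for Pdia6, and barcodes of 200 to under 500 genes gave 0.13 for the sum.

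The UT log2 difference across Col1a1 classes was 0.47 after thinning, 0.89 with all UMIs but Col1a1 as denominator and 0.75 at 500 genes. In sets chosen after seeing the data it was 0.49 in barcodes above 5% mitochondrial UMIs, 0.58 without class II and keratinocyte barcodes, 0.41 without those with at least 10 Malat1 UMIs and 0.44 without those of 500 genes or more. The IMQ value was -0.12 after thinning, 0.29 with all UMIs but Col1a1, 0.61 at 500 genes, -0.077 without Malat1-containing barcodes and -0.11 without those of 500 genes or more. Thinning moved the median share of barcodes with a UMI to 8.95% in UT and 6.69% in IMQ.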
